A study of Mus musculus with 13 samples.

Results

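The 10 genes described here are imprinted genes that lie outside the Igf2 locus: Dlk1, Mest, Peg3, Plagl1, Ndn and Peg10, which are mainly read from the paternal allele, and Meg3, Cdkn1c, Grb10 and Zim1, which are mainly read from the maternal allele in most tissues. They were chosen by symbol from the matrix of RSEM expected counts, which held 21100 genes. Of the 10, 9 had a value in every tumor and passed the filter on low counts, among 14390 genes tested. Meg3, the noncoding RNA of the Dlk1 domain, was not analysed here.

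Imprinted genes keep a methylation mark from the egg or the sperm, so that only the maternal or the paternal copy is transcribed. Many of them act on growth: the paternally expressed genes of a domain often favour growth of the embryo and the maternally expressed genes often restrain it. In adult tissues most are switched down, and their return in tumors is well known, above all for Igf2, a growth factor of the insulin family.

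The data were bulk RNA sequencing of mouse basal cell carcinoma (BCC), a skin tumor driven by the Hedgehog pathway, from 2 models, all in female mice. The 9 GEM-BCC tumors came from 7 Ptch1+/- K14-CreER2 p53fl/fl mice and lay intradermally. These mice had received 4 Gy of X-rays and 3 injections of 300 µg tamoxifen, the agent that lets Cre remove p53 in cells with an active K14 promoter. A single mouse carried both GEM2 and GEM3, and another carried GEM7 and GEM8. Tp-BCC was sampled as 4 subcutaneous tumors of 4 Ptch1+/-p53fl/fl mice, each inoculated with 2000000 BCC cells, and all descended from 1 GEM-BCC tumor, so their spread holds no difference between founding tumors. The floxed p53 alleles and the single Ptch1 copy were shared by both models, but the stroma of a Tp-BCC tumor came from a host with no Cre. All GEM-BCC libraries were labelled batch 1 and all Tp-BCC libraries batch 2, so model, site and batch cannot be told apart.

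Counts summed to 28075317 to 32629102 per GEM-BCC library and to 15388027 to 17494912 per Tp-BCC library. Log2 CPM, relative to the mean of each gene over all tumors, fell with the GC content of the transcript in TP1 and TP3 (Spearman rho across genes of -0.389 and -0.474). It rose with GC content in TP2 and TP4 (0.594 and 0.589). In 8 GEM-BCC libraries rho was -0.310 to -0.150, and in GEM1 it was 0.366. Values with this trend removed are given for each imprinted gene that changed and where they altered the call, or moved the fold by more than 1.5 times, of another gene named here. Basal keratinocyte markers were abundant in both models, with a summed level of 11898 to 17691 CPM in GEM-BCC and 8397 to 20512 CPM in Tp-BCC. In bulk tumors, fewer cells of a type and less RNA per cell cannot be told apart.

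Between the models, Dlk1, Mest and Peg10 were higher in Tp-BCC and Grb10 was lower, each with no overlap between the 4 Tp-BCC and the 9 GEM-BCC tumors (of all genes tested, 5.50% lay higher and 4.45% lower without overlap). The fold differences were 36.3 for Dlk1, 4.66 for Mest and 3.47 for Peg10 upwards, and 6.39 for Grb10 downwards. Peg3, Plagl1, Ndn, Cdkn1c and Zim1 did not pass the test. By edgeR's quasi-likelihood test with Benjamini-Hochberg adjustment over all genes, 3 of 9 members were thus higher and 1 was lower at an adjusted p under 0.05, where 11.1% and 8.35% of the 14390 genes tested were (19.4% in either direction). With the GC trend of each library as an offset, the same 4 members passed, and 28.3% of all genes did. With the further requirement of an absolute log2 fold change above 2, Dlk1 and Mest were called higher and Grb10 lower, beside 2.36% and 3.21% of all genes (5.57% in either direction). The 3 members that rose belong to the 6 read from the paternal allele, and the member that fell is 1 of 3 tested that are read from the maternal allele. The median log2 fold change of the 9 was -0.13, against -0.03 over all genes, so the list as a whole had no common direction.

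**Figure D1:**
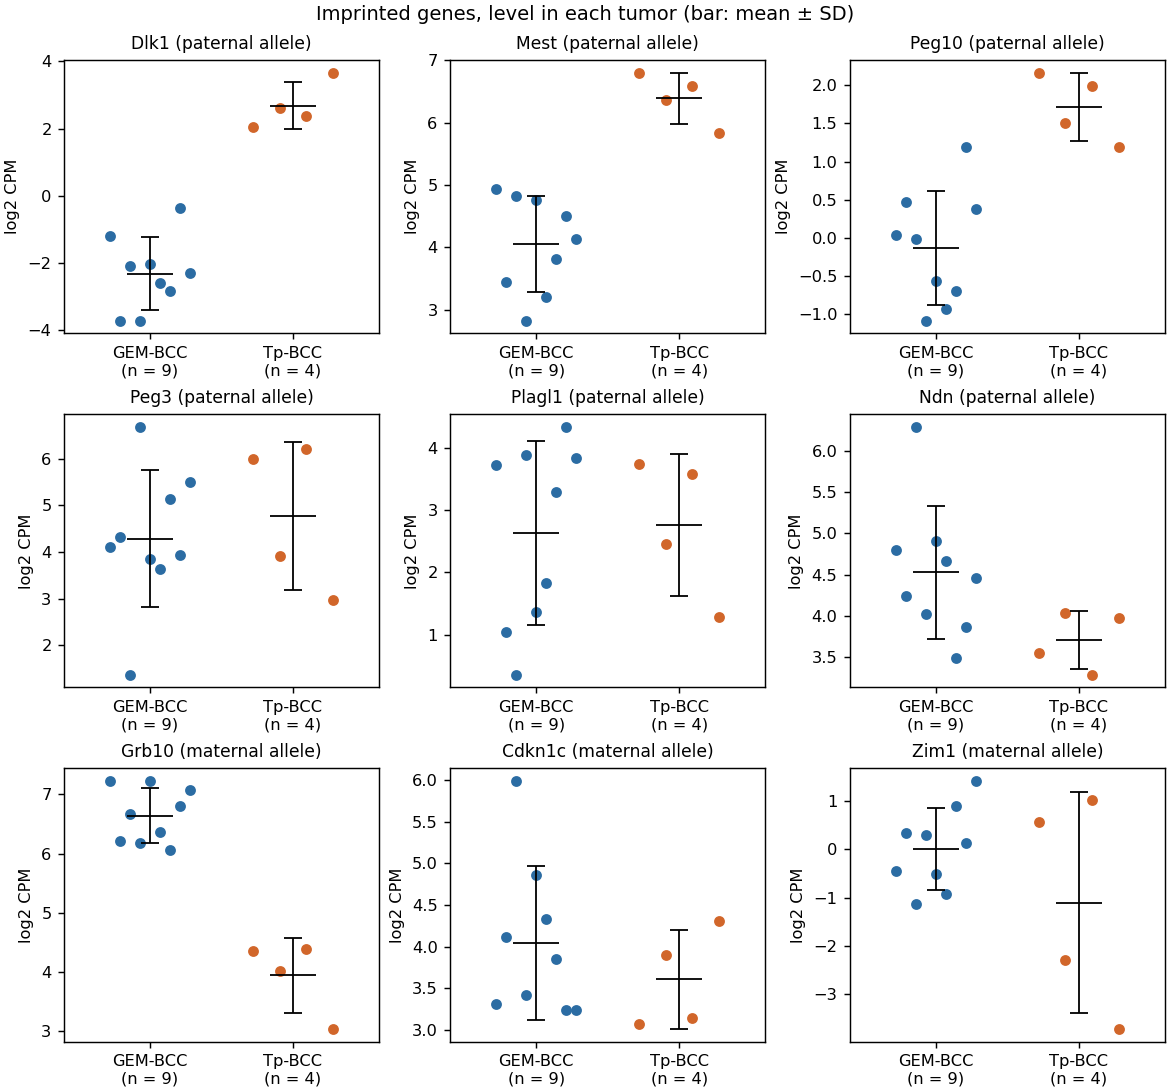
Log2 CPM of each imprinted gene (y axis) in the 9 GEM-BCC and 4 Tp-BCC tumors (x axis), 1 point per tumor, with the mean and SD as bars. The Tp-BCC points lie above every GEM-BCC point for Dlk1, Mest and Peg10 and below every one for Grb10, and the models overlap for the other 5 genes.

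Dlk1 encodes a transmembrane protein of the Delta family that marks preadipocytes and many embryonic progenitors. It was close to absent in GEM-BCC, at 0 CPM in GEM2 and GEM4, 0.129 CPM in the median tumor and 0.702 CPM at most, in GEM8. The 4 Tp-BCC tumors held 4.06, 5.98, 5.15 and 12.6 CPM (TP1 to TP4). All Tp-BCC tumors were thus several times above the highest GEM-BCC tumor.

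Dlk1 had a log2 fold change of 5.18 ± 0.73 (SE, n = 9 and 4; edgeR adjusted p = 2.34e-04). With the GC trend as an offset it was 4.84 (adjusted p = 1.76e-04). Dlk1 entered the test through the Tp-BCC tumors, since of the GEM-BCC tumors only GEM1 (11 counts) and GEM8 (22) reached 10 counts. The counts behind it were few in GEM-BCC, 53 over the 9 libraries against 425 over the 4 Tp-BCC libraries, and the 0 counts in GEM2 and GEM4 allow up to 0.109 and 0.0989 CPM (3 counts, counting error only). As worded, the paper's filter amounts to 10 counts in at least 10 tumors, and Dlk1 was not tested under that filter.

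Because Dlk1 is also a gene of the adipocyte lineage, it was set beside the adipocyte markers. Of the 4 tested (of 6), Cidec (log2 fold change 7.89), Fabp4 (3.83) and Adipoq (3.66) were higher in Tp-BCC, and Pparg did not pass the test (-0.14). With the GC offset Fabp4 stood at 4.93. Their summed level was 0.956 to 4.90 CPM in GEM-BCC and 11.7, 72.2, 12.0 and 14.3 CPM in TP1 to TP4. In GEM-BCC, Cidec reached 2 counts at most and Lep 3. Cidec thus entered the test only through the Tp-BCC tumors (18 to 360 counts), the group where it is high. Skeletal muscle markers summed to 2.64 to 8.63 CPM in GEM-BCC and to 8.77, 14.5, 8.80 and 57.8 CPM in TP1 to TP4. Markers of endothelium (84.8 to 233 against 260 to 342) and dermal papilla (320 to 703 against 764 to 903) were also higher in sum in every Tp-BCC tumor. Most of the dermal papilla sum was Hhip, which the paper lists with Hedgehog pathway genes, and Sox18. Their medians were 225 and 124 CPM in GEM-BCC and 439 and 286 CPM in Tp-BCC. Hhip had a log2 fold change of 0.75, or 1.43 with the GC offset. Corin did not pass the test (log2 fold change 0.04, edgeR adjusted p = 0.984). In the lists of muscle, endothelium and dermal papilla, 1 of 5, 3 of 7 and 4 of 6 tested genes passed the test upwards, where 11.1% of all genes did. Of 10 fibroblast markers, 2 passed upwards (Pdgfra and Fbln1) and 2 downwards (Dpt and Col1a1), where 8.35% of all genes passed downwards. Fibroblast sums overlapped between the models (13110 to 50218.5 against 16537 to 28635 CPM), as did those of pericyte, Schwann cell and macrophage markers. The part of any of these cell types in the result for Dlk1 was not tested.

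The 250 bases before the start of Dlk1 (RefSeq, GRCm38.p6, chr12:109452573-109452822, plus strand), the member with the largest difference, are shown 5′ to 3′. Capitals would mark TGCCGC or its reverse complement GCGGCA, the hexamer that ZFP57 binds when methylated, and this window holds neither.

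Dlk1: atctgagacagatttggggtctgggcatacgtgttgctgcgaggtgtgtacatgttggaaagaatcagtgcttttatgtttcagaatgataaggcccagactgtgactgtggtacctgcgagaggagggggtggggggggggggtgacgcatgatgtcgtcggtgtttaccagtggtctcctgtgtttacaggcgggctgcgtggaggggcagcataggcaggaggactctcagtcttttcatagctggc

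The window held 8 CpG, and 56.7% of 32536 mouse promoter windows of the same length held fewer. The hexamer occurred in 8.75% of those windows.

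Mest, also called Peg1, encodes a hydrolase-like protein of mesoderm and growing fat tissue. In GEM-BCC it ranged from 6.99 CPM in GEM4 to 30.7 CPM in GEM1, with a median of 17.5. The Tp-BCC tumors held 111, 82.6, 95.9 and 57.0 CPM. The lowest Tp-BCC tumor, TP4, was still above GEM1. On the log2 scale the difference was 2.22 ± 0.35 (SE; edgeR adjusted p = 5.35e-04) and 2.38 with the GC offset.

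The 4 Tp-BCC tumors became nearly equal in Mest once the GC trend was removed: their SD of log2 CPM went from 0.41 to 0.10. The SD in GEM-BCC hardly moved, from 0.77 to 0.81. Mest overlaps Copg2 in the RefSeq annotation. Copg2, a coat protein gene of Golgi transport, fell by 1.29 on the log2 scale in Tp-BCC (edgeR adjusted p = 0.0113), from 83.0 ± 8.87 to 34.0 ± 19.8 CPM (mean ± SD). The neighbour thus moved against Mest. The authors set RSEM to count 1 strand. Whether the library kit marked strand is not given in the sources used here, and reads from such an overlap may be misassigned.

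Mest has starts far enough apart to show separately, both on chromosome 6, plus strand (GRCm38.p6): the upstream one at chr6:30733256-30733505 and the downstream one at chr6:30737800-30738049. Capitals mark the ZFP57 hexamer in either orientation.

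Mest upstream: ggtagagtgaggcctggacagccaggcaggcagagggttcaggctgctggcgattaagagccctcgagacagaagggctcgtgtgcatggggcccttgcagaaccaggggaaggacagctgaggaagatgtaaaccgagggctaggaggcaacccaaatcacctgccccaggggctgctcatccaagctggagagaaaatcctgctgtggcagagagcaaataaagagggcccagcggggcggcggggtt

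Mest downstream: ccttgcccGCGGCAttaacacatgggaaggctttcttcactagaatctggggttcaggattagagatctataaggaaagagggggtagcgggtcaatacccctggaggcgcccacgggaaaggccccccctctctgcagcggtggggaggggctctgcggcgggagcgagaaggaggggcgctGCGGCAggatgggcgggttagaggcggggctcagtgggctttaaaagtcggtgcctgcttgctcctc

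The downstream window held the hexamer 2 times and 14 CpG, more than 70.4% of promoter windows. The upstream window held 0 hexamers and 7 CpG. A match of letters describes the window and says nothing of binding.

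Peg10 encodes a retrotransposon-derived, Gag-like protein needed in the placenta. It was low throughout: 0.396 to 2.20 CPM in GEM-BCC (median 0.917, highest in GEM8) and 4.42, 2.76, 3.89 and 2.21 CPM in TP1 to TP4. The lowest Tp-BCC tumor and the highest GEM-BCC tumor differed by about 0.01 log2 units, so the absence of overlap is narrow. Peg10 differed by 1.80 ± 0.44 on the log2 scale (SE; edgeR adjusted p = 0.0107) and by 2.15 with the GC offset. Without TP1 and TP3 the adjusted p was 0.0669.

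Grb10 encodes an adaptor that binds the insulin and Igf1 receptors and restrains their signal. It is the member that fell. GEM-BCC tumors held 66.5 CPM (GEM7) to 150 CPM (GEM1), with a median of 102. Tp-BCC tumors held 20.3, 16.1, 20.9 and 8.14 CPM. Every GEM-BCC tumor was above every Tp-BCC tumor, with no value between 20.9 and 66.5 CPM.

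Grb10 had a log2 fold change of -2.68 ± 0.33 (SE; edgeR adjusted p = 7.70e-05). It was -2.69 with the GC offset, and it lay between -2.81 and -2.49 when each tumor was left out in turn. Among the 9 members Grb10 varied least from tumor to tumor within GEM-BCC, with an SD of 0.46 on the log2 scale against a median of 0.44 over all genes.

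The windows before the listed starts of Grb10 lie on chromosome 11, minus strand (GRCm38.p6), at chr11:12037421-12037670 and chr11:12027972-12028221. They are shown for their unlike CpG content.

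Grb10 upstream: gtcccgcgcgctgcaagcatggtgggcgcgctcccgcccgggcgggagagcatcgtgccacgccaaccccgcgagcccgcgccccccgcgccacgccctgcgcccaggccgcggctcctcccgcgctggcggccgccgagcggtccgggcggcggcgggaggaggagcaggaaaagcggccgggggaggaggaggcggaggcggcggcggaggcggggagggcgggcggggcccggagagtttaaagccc

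Grb10 downstream: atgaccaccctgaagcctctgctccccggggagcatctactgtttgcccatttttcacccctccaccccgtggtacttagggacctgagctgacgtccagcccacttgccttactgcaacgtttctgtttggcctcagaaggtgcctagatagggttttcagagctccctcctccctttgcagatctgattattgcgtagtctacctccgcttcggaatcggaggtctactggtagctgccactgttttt

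The upstream window held 40 CpG, more than 98.7% of promoter windows, and a GC content of 81.2%. The downstream window held 8 CpG. Neither held the ZFP57 hexamer.

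**Figure D2:**
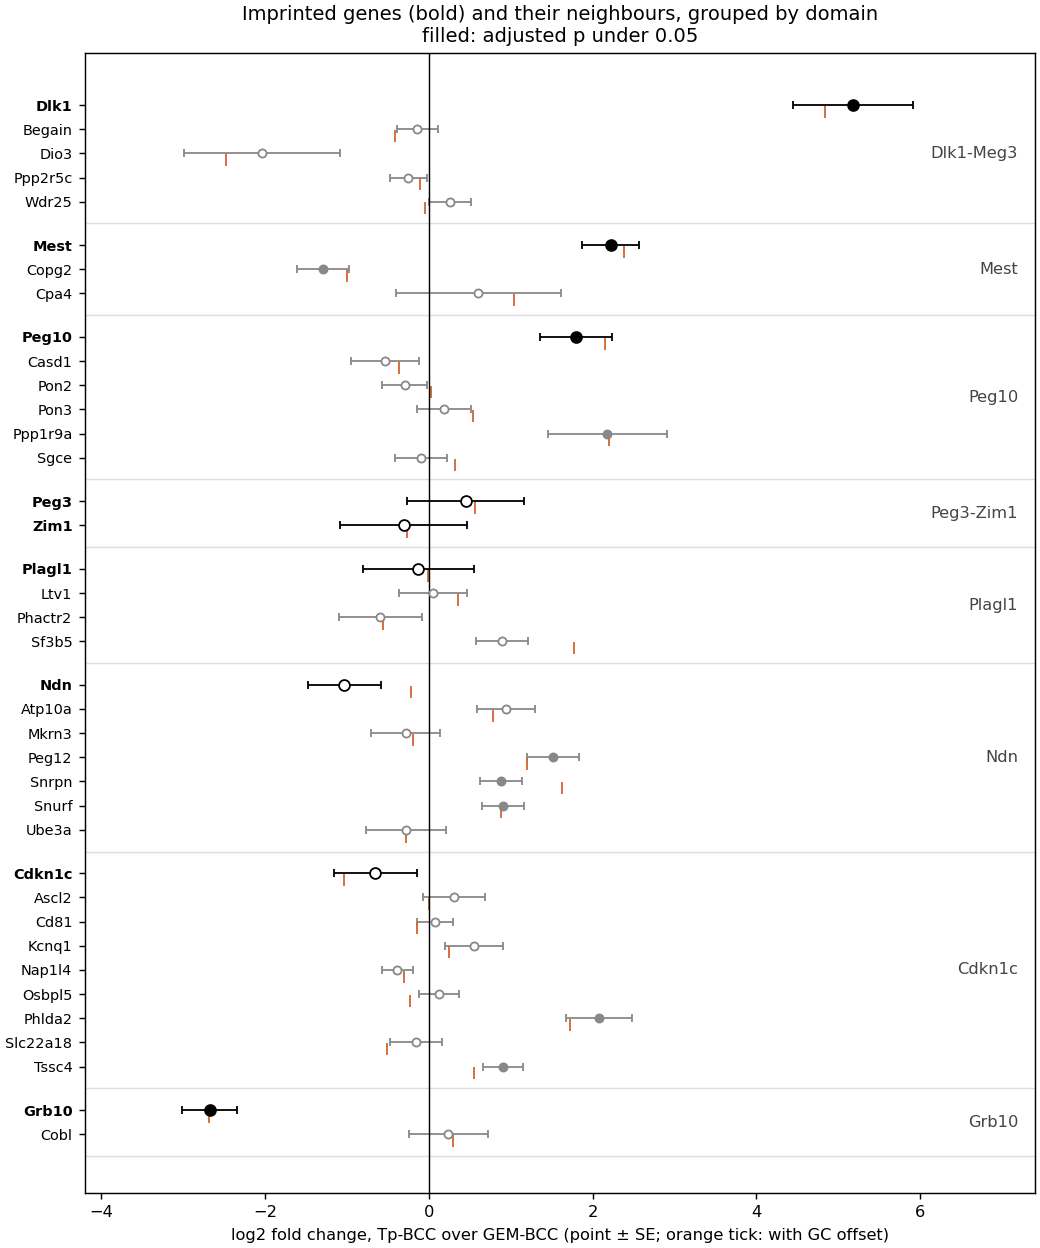
Log2 fold change of Tp-BCC over GEM-BCC (x axis, point ± SE) for the imprinted genes (bold) and the tested genes beside them, grouped by domain (y axis), with filled points at an adjusted p under 0.05 and an orange tick for the value with the GC offset. Dlk1 at 5.18 and Grb10 at -2.68 stand farthest from 0, and Mest and its neighbour Copg2 lie on opposite sides.

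The 5 members that did not pass the test varied widely inside a model. Peg3, a zinc finger protein, ranged from 2.50 CPM in GEM3 to 103 CPM in GEM4, a 41.3-fold range. It was 63.9, 14.9, 74.1 and 7.78 CPM in TP1 to TP4. TP1 and TP3 were high and TP2 and TP4 low, which is also how the libraries divided by GC trend. Removing the trend brought the SD in Tp-BCC from 1.59 to 0.92. The log2 fold change of Peg3 was 0.45 ± 0.71 (edgeR adjusted p = 0.686).

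Zim1, a zinc finger gene beside Peg3, was rare, at 0.380 to 2.62 CPM in GEM-BCC. It held 1.41, 0.129, 1.98 and 0 CPM in TP1 to TP4, the same order of tumors as Peg3. The count of 0 in TP4 allows up to 0.214 CPM. Its log2 fold change was -0.31 (adjusted p = 0.807). Without TP1 and TP3 it was -3.95 (adjusted p = 0.0134), and without TP2 and TP4 it was 0.62.

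Plagl1, a zinc finger transcription factor that acts on a set of imprinted genes, ranged from 1.20 CPM (GEM3) to 20.2 CPM (GEM8) and stood at 13.3, 5.40, 11.9 and 2.36 CPM in Tp-BCC. The log2 fold change was -0.13 (edgeR adjusted p = 0.912), and its sign depended on single tumors.

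Ndn, which encodes necdin, a protein of nondividing neurons and of stromal cells, was highest in GEM3 (78.6 CPM) and otherwise 11.1 to 30.1 CPM in GEM-BCC. Tp-BCC tumors held 11.6, 16.3, 9.64 and 15.6 CPM. The log2 fold change was -1.03 ± 0.44 (edgeR adjusted p = 0.113) and -0.21 with the GC offset (adjusted p = 0.796), so its size changed with the GC correction. Unlike for Mest, removing the trend widened the Tp-BCC values, from an SD of 0.36 to 1.24.

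Cdkn1c encodes p57, an inhibitor of cyclin-dependent kinases. It was likewise highest in GEM3 (63.5 CPM) and 9.34 to 28.9 CPM in the other GEM-BCC tumors. It stood at 8.36, 14.9, 8.80 and 19.7 CPM in Tp-BCC. The log2 fold change was -0.66 (edgeR adjusted p = 0.375), or -1.03 (adjusted p = 0.128) with the GC offset, under which the SD in Tp-BCC went from 0.60 to 0.06.

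The relation of the members to Igf2 was examined within GEM-BCC, where Igf2 ran from 1.93 CPM in GEM2 to 1095 CPM in GEM3. These 2 tumors share a mouse, and their mean was 5.55 log2 CPM. The Igf2 means of the 7 mice thus spanned 4.75 log2 units, less than the range over tumors. Over the 7 mice (mean log2 CPM of a mouse), Grb10 had the highest Pearson's r, 0.92 (exact permutation p = 0.00595, 0.0536 after Benjamini-Hochberg adjustment over the 9 relations computed) and Spearman's rho = 0.82 (exact p = 0.0341, adjusted 0.154). Without the 2 mice farthest from the Igf2 median r was 0.82. Mest had the highest Spearman's rho and r = 0.79 (exact permutation p = 0.0391, adjusted 0.176) and rho = 0.86 (exact p = 0.0238, adjusted 0.154), and r was 0.47 without those 2 mice, so this relation rested in part on them. Dlk1 had r = 0.64 (exact permutation p = 0.125, adjusted 0.376) and rho = 0.75 (exact p = 0.0663, adjusted 0.199), and r was 0.22 without the 2 mice.

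None of the 9 relations passed the adjusted threshold, and 2 passed at an unadjusted exact p under 0.05. Leaving out the mouse of GEM4 gave r = 0.95 for Grb10 (adjusted exact p = 0.0250), the exception among the 7 mice left out in turn. For the other 6 members r over mice lay between -0.27 (Cdkn1c) and 0.32 (Peg10), with exact permutation p of 0.460 to 0.956. Without the 2 mice farthest from the Igf2 median, r was 0.96 for Zim1, 0.60 for Peg10, 0.58 for Plagl1, 0.49 for Peg3, -0.20 for Ndn and -0.63 for Cdkn1c, over 5 mice. With the GC trend removed, r over the 7 mice was 0.89 for Grb10 (exact permutation p = 0.0155, adjusted 0.139), 0.77 for Mest and 0.61 for Dlk1.

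As a description over the 9 tumors, which are not independent, r with Igf2 was 0.77 for Grb10, 0.75 for Dlk1, 0.74 for Mest and 0.57 for Ndn. It was -0.42 for Peg3 and -0.39 for Zim1. The 5 tumors with the most Igf2 (GEM3, GEM1, GEM8, GEM5 and GEM9) were also the 5 with the most Mest and the 5 with the most Grb10. The same 5 tumors had the highest sums of endothelium markers (173 to 233 CPM, against 84.8 to 146 in the other 4) and of adipocyte markers (2.83 to 4.90 CPM, against 0.956 to 2.45). Sums of the other cell type lists examined did not divide the tumors this way. Those of fibroblast and macrophage markers were highest in GEM6 (50218.5 and 225 CPM), and that of dermal papilla markers in GEM2 (703 CPM). The part of any cell type in the relation was not tested.

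**Figure D3:**
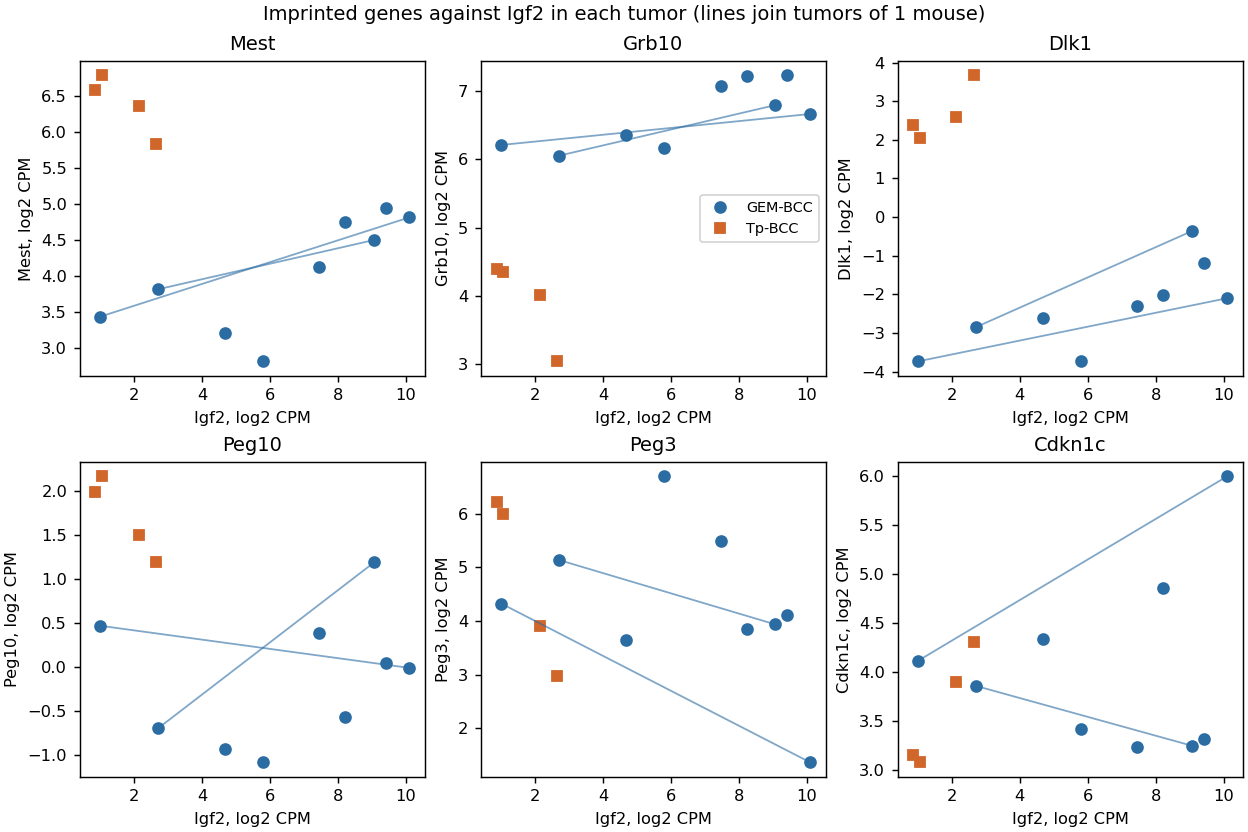
Log2 CPM of 6 imprinted genes (y axes) against log2 CPM of Igf2 (x axes) in each GEM-BCC tumor (blue circles) and Tp-BCC tumor (orange squares), with lines joining tumors of 1 mouse. Mest, Grb10 and Dlk1 rise with Igf2 along both lines, though Dlk1 holds only 0 to 22 counts per GEM-BCC tumor. The Tp-BCC tumors (Igf2 at most 6.14 CPM) lie above the GEM-BCC tumors for Mest and Dlk1 and below them for Grb10.

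The tumors that shared a mouse gave a second view of the same relation. From GEM2 to GEM3, Igf2 differed 569-fold, and Mest was 2.61 times, Ndn 4.18 times, Cdkn1c 3.69 times and Grb10 1.37 times as high, while Peg3 was 0.125 times as high. From GEM7 to GEM8, Igf2 differed 83.1-fold, and Peg10 was 4.07 times, Mest 1.61 times and Grb10 1.67 times as high, while Peg3 was 0.435 times as high. Mest, Grb10 and Dlk1 were higher and Peg3 and Zim1 lower in the Igf2-rich tumor of both mice. For Dlk1 this rested on 0 and 5 counts in GEM2 and GEM3 and on 2 and 22 in GEM7 and GEM8. The size of its log2 difference between GEM2 and GEM3 depends on the prior count of 2. Ndn was also higher in the Igf2-rich tumor of both mice, but by 1.30 times in the second mouse. Plagl1, Peg10 and Cdkn1c differed in opposite directions in the 2 mice. For all genes the median absolute log2 difference was 0.49 between GEM2 and GEM3 and 0.32 between GEM7 and GEM8, and 7 and 9 of the 9 members exceeded it. Grb10 (0.45) and Peg10 (-0.48) were the 2 that did not between GEM2 and GEM3. These pairs have no replicate and no test was made.

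In the Tp-BCC tumors, Igf2 was low (2.00, 4.31, 1.74 and 6.14 CPM, log2 fold change -6.50 ± 1.58, edgeR adjusted p = 0.0106). Igf2 passed when each tumor was left out in turn. It did not pass without TP2 and TP4 (edgeR adjusted p = 0.0752) or without TP1 and TP3 (0.0536). Mest was above, and Grb10 below, every GEM-BCC tumor there. Mest thus stood with high Igf2 in GEM-BCC and with low Igf2 in Tp-BCC. Grb10 was lower in the GEM-BCC tumors with less Igf2, and lower in Tp-BCC than in GEM-BCC, but not to the same level at like Igf2. GEM2, at 1.93 CPM of Igf2 and so within the Tp-BCC range, held 74.1 CPM of Grb10. GEM7, at 6.43 CPM of Igf2, held 66.5 CPM, whereas the Tp-BCC tumors held 8.14 to 20.9 CPM of Grb10. Within Tp-BCC the order was reversed. TP4, with the most Igf2, held the least Grb10 (8.14 CPM), and TP3, with the least Igf2, held the most (20.9 CPM).

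Within GEM-BCC the members also varied with each other (Pearson's r over 9 tumors that share mice, as a description). Mest went with Grb10 (0.80) and Dlk1 (0.78), and Peg3 with its neighbour Zim1 (0.75). Ndn went with Cdkn1c (0.78), a value to which GEM3 contributes the highest point of both genes. Cdkn1c went against Plagl1 (-0.90) and Peg3 (-0.78). GEM3, the tumor with the most Igf2, held the most Ndn and Cdkn1c and the least Peg3, Plagl1 and Zim1 of the 9.

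**Figure D4:**
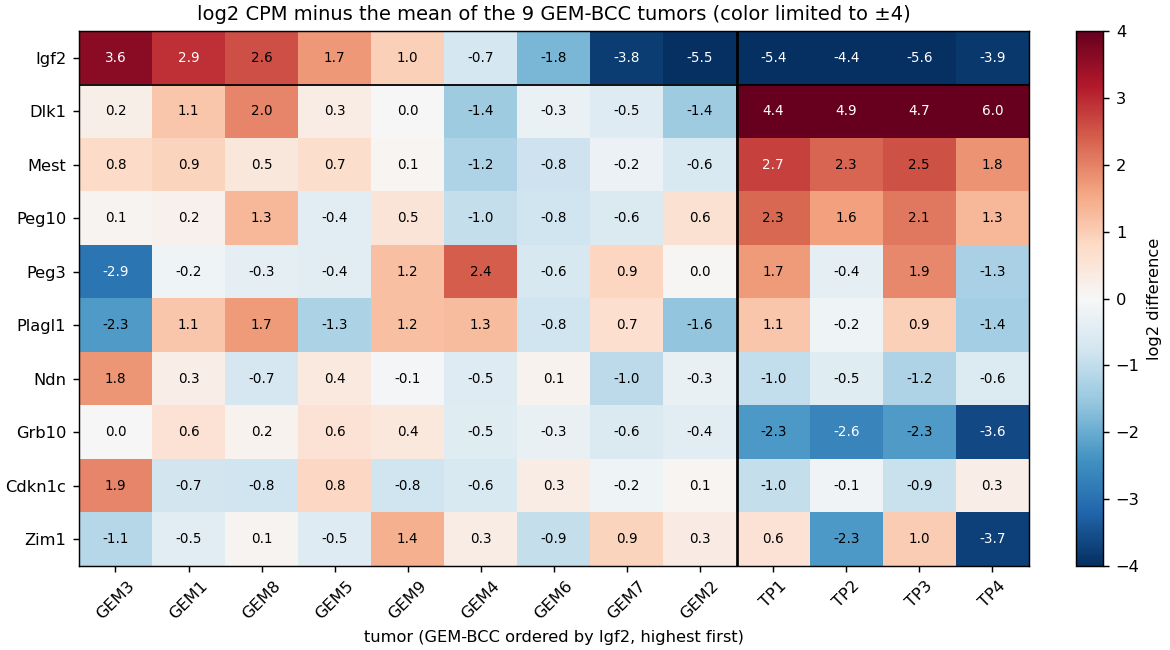
Log2 CPM of Igf2 and the 9 imprinted genes (rows) in each tumor (columns) minus the mean of the 9 GEM-BCC tumors, with GEM-BCC tumors ordered by Igf2 and color limited to 4 log2 units. Mest and Grb10 are positive or near 0 in the 5 Igf2-rich tumors on the left and negative in the other 4 GEM-BCC tumors, and Dlk1, Mest and Peg10 are positive and Grb10 negative in all 4 Tp-BCC tumors.

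The members varied more between GEM-BCC tumors than most genes. Their SD of log2 CPM had a median of 0.84, against 0.44 over all genes. It was 1.48 for Plagl1 and 1.47 for Peg3, each above more than 96% of genes, and 3.17 for Igf2. In Tp-BCC the median SD was 0.63 against 0.58 over all genes. With the GC trend removed it was 0.66 in Tp-BCC, against 0.36 over all genes. The comparison with all genes was not matched for level. The median of 0.84 is the SD of Zim1, which held 12 to 81 counts per GEM-BCC tumor. Peg10 (12 to 69 counts) and Dlk1 (0 to 22) were rare too.

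The genes whose pattern was most like that of a member over the 9 GEM-BCC tumors were found among 12294 genes, as a description. For Mest they were Rapgef3 (r = 0.94), Tnfrsf21 (0.93) and Gsta4 (0.91). For Grb10 they were C130074G19Rik (0.97), Steap3 (0.94) and Lrig3 (0.93), and for Dlk1 they were Retsat (0.98), Arhgap6 (0.96) and Tcf7l1 (0.94). For Peg3, Vps13d and Abcc6 are given (each 0.97 after rounding), and for Plagl1 they were C2cd3, Cdh24 and Setd1b (0.99 to 0.98). For Ndn they were Epdr1, Fxyd1 and Fam118b (0.99 to 0.96), and for Cdkn1c they were Rps26, Bloc1s1 and Mtres1 (0.99 to 0.97). For Peg10 they were Tgm2, Ccni and Rcn2 (each 0.94 after rounding, and 0.92, 0.78 and 0.73 with the GC trend removed), and for Zim1 they were Cep97, Zfp964 and Pias1 (each 0.95 after rounding). With so many candidates and 9 points, values of this size occur for every member.

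Of 45 genes listed as neighbours of the members in their domains, 29 were tested. At an adjusted p under 0.05, 6 were higher and 1 was lower in Tp-BCC, against 11.1% and 8.35% of all genes. Phlda2, a maternally expressed brake on placental growth beside Cdkn1c, rose from 0.865 ± 0.369 to 3.67 ± 1.25 CPM (log2 fold change 2.08 ± 0.40, edgeR adjusted p = 0.00263). With the GC offset the log2 fold change of Phlda2 was 1.72 (edgeR adjusted p = 0.00543), no longer above 2. Its Tp-BCC tumors held 2.30, 4.76, 2.93 and 4.71 CPM, all above the highest GEM-BCC tumor at 1.46 CPM. Cdkn1c itself was not among the called genes.

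Beside Ndn, the paternally expressed genes Peg12 (log2 fold change 1.52, edgeR adjusted p = 0.00427), Snurf (0.91, adjusted p = 0.0225) and Snrpn (0.88, adjusted p = 0.0259) were higher, while Ndn was not called. With the GC offset Snrpn stood at 1.63 and Snurf at 0.89. Snrpn and Snurf share a transcript, and their fractional counts show that reads were divided between them, so they are not independent. Tssc4 was higher by 0.91 (edgeR adjusted p = 0.0187). Its reads were divided with Cd81 in Tp-BCC only, and the value is uncertain. Snrpn, Snurf and Tssc4 no longer passed without TP2 or without TP4.

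Ppp1r9a, a neuronal scaffold gene near Peg10, passed narrowly (log2 fold change 2.18 ± 0.73, edgeR adjusted p = 0.0462), with 3.94, 0.836, 3.83 and 0.0714 CPM in TP1 to TP4. TP1 and TP3 alone were above the GEM-BCC range of 0.0363 to 1.23 CPM. Without them its log2 fold change was -0.05, and it passed in 2 of the 13 fits that left out 1 tumor. Sgce, which shares a promoter region with Peg10, did not move with it (-0.10, adjusted p = 0.853). Dio3, the deiodinase gene at the far end of the Dlk1 domain, stood at -2.04 ± 0.96 (adjusted p = 0.144) where Dlk1 rose. The most abundant other neighbours, Cd81, Nap1l4, Ppp2r5c, Osbpl5 and Sf3b5, did not pass the test (0.07, -0.38, -0.25, 0.13 and 0.90). With the GC offset Sf3b5 passed, at 1.78 (edgeR adjusted p = 0.00825).

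Of 23 imprinted genes of other domains, 17 were tested and 2 passed. Slc22a3, a cation transporter of the Igf2r domain, was higher, at 213 ± 42.4 against 26.1 ± 30.6 CPM (log2 fold change 3.03 ± 0.53, edgeR adjusted p = 0.00128). Herc3 was lower, at 2.52 ± 0.970 against 8.18 ± 2.30 CPM (-1.69 ± 0.37, adjusted p = 0.00613). The abundant Gnas, Dcn, H13, Igf2r and Trappc9 did not pass (0.53, -0.54, 0.24, 0.38 and 0.60). Igf2r, the receptor that clears Igf2, held 150 ± 62.6 CPM in GEM-BCC and 195 ± 43.6 CPM in Tp-BCC. The share called, 1 of 17 in each direction, was under the background of 11.1% and 8.35%.

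Among 18 factors that keep or remove imprinting marks, 15 were tested, and 4 were higher in Tp-BCC, where 11.1% of all genes were. Uhrf1, which brings the maintenance methylase to replicating DNA, rose by 1.63 ± 0.34 (edgeR adjusted p = 0.00463), and Dnmt1, that methylase, by 1.11 ± 0.28 (adjusted p = 0.0118). Trim28, the corepressor that ZFP57 recruits, rose by 0.90 (adjusted p = 0.0230) and Dnmt3b by 0.85 (adjusted p = 0.00812), in log2 units. Trim28 did not pass without TP2 or without TP4, and Dnmt1 did not without TP2. Zfp57 itself stood at -0.11 (adjusted p = 0.831). Tet1, an enzyme of demethylation, was at -1.37 (adjusted p = 0.0584, and 0.0335 with the GC offset). The abundant Tet3, Ehmt2, Dnmt3a, Setdb1 and Ctcf did not pass (-0.32, 0.47, -0.37, -0.17 and -0.24). Without TP2 the number of factors called was 2, and without TP2 and TP4 it was 0. Methylation was not measured, and the files do not tell the parental alleles apart.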

How the data were processed

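Bulk RNA sequencing counts of 13 mouse BCC tumors (9 GEM-BCC from 7 mice, 4 Tp-BCC from 4 mice) were analysed. The authors enriched poly(A) RNA, and the submitters' processing notes name Bowtie2 2.3.4.3, RSEM 1.3.1 and GRCm39. The deposited values are RSEM expected counts per gene, not normalized, with no value for some genes in a model, and 0 columns were left unused. Expected counts were rounded to whole numbers. Genes with a value in all tumors and at least 10 counts in at least 4 were tested with edgeR 4.0.16 (TMM, robust quasi-likelihood F test, R 4.3.3, no covariate), with Benjamini-Hochberg adjustment. SE is the log2 fold change divided by the root of F, and log2 CPM carries a prior count of 2. Differences are called at an adjusted p under 0.05, or with an absolute log2 fold change above 2 as well.

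The GC trend of each library (lowess, span 0.3) used the median GC content of protein-coding transcripts (GENCODE vM21), known for 98.3% of tested genes, and entered an alternative fit as an offset. Relations to Igf2 used exact 2-sided permutation of pairings over 7 mice (5040 pairings). The mice formed no separate clusters: the largest gap in Igf2 was 33.2% of its range. Promoter windows are RefSeq, GRCm38.p6, and 8 of 10 members had one. Totals of 15388027 to 32629102 counts per tumor limit the precision of genes under 1 CPM. Where nothing else is said, p-values measure the spread between tumors, of which 2 pairs share a mouse. The members and gene lists were chosen with earlier results of these data known. Named are all members, listed genes past the adjusted p, up to 5 more per list with the highest mean log2 CPM, and the 3 genes most like each member. For Peg3, 1 of these 3 is not reported here. Genes named outside these rules were chosen after their values were seen. Alternatives were other normalizations, filters and tests (DESeq2 1.42.0), counts summed per mouse, the replicate block, the GC offset and each tumor left out. Leaving out TP2 and TP4, or TP1 and TP3, was added after seeing the data. Scripts were tested on simulated data.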

Additional observations from a re-analysis of the deposited data

Results flagged for a closer look

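A single tumor stood apart from the others of its model in 3 of 46 comparisons (23 genes in 2 models, log2 CPM, Dixon's test at 95%), where chance alone gives about 1 in 20. Slc22a3 in GEM4 was at 6.74 log2 CPM (107 CPM), and the other 8 GEM-BCC tumors lay between 2.88 and 4.57. Without GEM4 the log2 fold change of Slc22a3 was 3.73. Herc3 in GEM3 was at 1.68 log2 CPM, below 2.79 to 3.43 in the other GEM-BCC tumors. In Tp-BCC, Herc3 in TP4 was at 0.197 log2 CPM (1.07 CPM), below 1.57 to 1.67 in TP1 to TP3, and at -0.46 with the GC trend removed. None of the 9 imprinted genes described above, nor Igf2, had such a tumor in either model.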

How the results depend on the processing

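The 4 imprinted genes that changed (Dlk1, Mest, Peg10 and Grb10) each kept their direction and stayed past the adjusted p when any 1 of the 13 tumors was left out, so the count was 4 throughout. With the replicate block the count was 2 (edgeR adjusted p of 0.0407 for Mest, 0.0173 for Grb10, 0.0603 for Dlk1 and 0.201 for Peg10), and the counts of neighbours, other imprinted genes and maintenance factors were 0, 0 and 0. With the replicate block and the GC offset they were 0, 1 and 1. Igf2 did not pass with the block (edgeR adjusted p = 0.306) or with block and GC offset (0.181). The numbers do not pair the tumors: the same number stands for different mice in the 2 models. Same-numbered tumors had correlations of -0.381 to -0.101, which cannot show this alone, since no value for unlike-numbered tumors stands beside them. Leaving out 1 tumor gave 3 to 7 neighbours (3 without TP2, 4 without TP4), 2 to 4 other imprinted genes (4 without GEM3) and 2 to 5 maintenance factors (2 without TP2). Without TP2 and TP4 the counts were 2 neighbours and 0 factors, and without TP1 and TP3 they were 13 neighbours, 7 other imprinted genes and 10 factors. Leaving out 1 mouse gave 0 to 1 relations with Igf2. Directions reversed, without passing the test, for Plagl1 (0.59 with the replicate block, 0.74 with block and GC offset, 0.11 without GEM8, 0.02 without TP2, 0.16 without TP4, 0.49 without both), Zim1 (0.04 without TP2, 0.087 without TP4, 0.62 without both), Peg3 (-0.024 without TP3, -1.37 without TP1 and TP3) and Ppp1r9a (-0.053 without TP1 and TP3). Leaving out 1 tumor, Peg3 ranged from -0.024 to 0.99, Plagl1 from -0.46 to 0.16 and Zim1 from -1.06 to 0.087. The cause was not tested. Dlk1 was not tested under the stricter filter (10 counts in at least 10 tumors), which is the paper's filter as worded. All genes past the call numbered 178 with the block, 478 without TP2 and TP4 and 1850 without TP1 and TP3, against 801. Low counts limit Dlk1, Peg10, Zim1, Phlda2 and Ppp1r9a.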
